A study of Danio rerio with 6 samples.

Results

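The proximal signaling genes of leukocyte Fc receptors were examined in RFP-positive blood progenitors sorted from Danio rerio (zebrafish) embryos of 20 h after fertilization. The genes described are the receptor chain genes fcer1g and fcer1gl, the tyrosine kinase genes syk and lyn, the phosphatase gene ptprc, and the effector genes vav1, plcg2, pik3cg and plek. Each of these 9 genes was sought among the 32520 gene IDs by its zebrafish symbol, or by its capital form where only that was listed, and 8 of the 9 were found, each with 1 ID. vav1 had no ID under either form and was not analysed here. The capital symbols (SYK, LYN, PLCG2, PIK3CG, PLEK) are printed as listed.

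The mutant group comprised 3 libraries labelled blf-/-;drl 4KO, and the control group comprised 3 libraries. The labels differ on the controls, which the sample genotype gives as blf-/- and the series design as blf+/-. By the sample genotype both groups are blf-/-, and their labels differ in the drl genes alone. The blf transcript also differed between the groups, as given below, and which label holds was not tested. In both groups the cells were sorted for a red fluorescent protein read from a gene-trap allele of blf, after Liberase digestion of embryos, with 30000 cells per library. The labels do not say whether replicates came from separate clutches or sorts. The sorting reporter lies in a gene whose own transcript differed between the groups: blf was at 45.3 to 118 CPM (read counts divided by the TMM-scaled library size) in blf-/-;drl 4KO libraries and at 2526 to 2835 CPM in control libraries. The drl genes drl, drll.1, drll.2 and drll.3 had 2 to 11 reads each over the 3 blf-/-;drl 4KO libraries and 1255 to 22955 over the 3 control libraries.

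In mammals, Fc receptors and several other activating receptors of leukocytes lack catalytic domains of their own. They signal through small partner chains that carry an immunoreceptor tyrosine-based activation motif (ITAM). Src family kinases such as Lyn phosphorylate the ITAM, Syk docks on it through its SH2 domains, and adaptors pass the signal on to Vav proteins, phospholipase C gamma and PI3-kinases. These proteins are characteristic of phagocytes, which are among the first blood cells of the zebrafish embryo. No sequence of these genes or proteins was used here.

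The receptor chain gene fcer1gl, the kinases and ptprc were higher in the blf-/-;drl 4KO libraries, by 4.34-fold to 6.22-fold. The effector genes PLCG2, PIK3CG and PLEK had smaller differences, of 1.78-fold to 2.35-fold, and did not pass the test. fcer1g was scarce and varied within each group. Of the 8 genes with an ID, all of which passed the filter on low counts, 4 were called higher and 0 lower at an adjusted p of 0.05 by edgeR's quasi-likelihood test. Over all 14517 genes tested, 13.0% were called higher and 9.92% lower, or 1887 and 1440 genes. With library totals as the scale the split was 2402 and 959. The share depends on the filter. With a filter of 10 CPM in 3 libraries, 1748 of 7670 genes were higher and 1433 lower. Under that filter 4 of the 8 genes were higher, and fcer1g had no value. At an unadjusted p of 0.05 in edgeR, 6 of the 8 were higher and 0 lower, beside 2885 higher and 2250 lower of all 14517 genes tested. DESeq2 and limma-voom called 5 and 4 of the 8 higher and 0 lower. Over all genes, DESeq2 called 3155 higher and 1708 lower, and limma-voom 2152 of 14517 higher and 1659 lower. DESeq2 gave a fold change for 30020 genes, and how many of these got an adjusted p was not counted. The median log2 fold change of the 8 genes was 1.68, beside 0.11 over all tested genes. In 6 of the 8 genes every blf-/-;drl 4KO library was above every control library, which held for 22.7% of all tested genes. The set was chosen with earlier results of these data known, so these counts describe it and give no independent support. Apart from fcer1g, each of the 8 genes had at least 53 reads in every library, so none of the other 7 passed the filter through the mutant libraries alone.

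**Figure D1:**
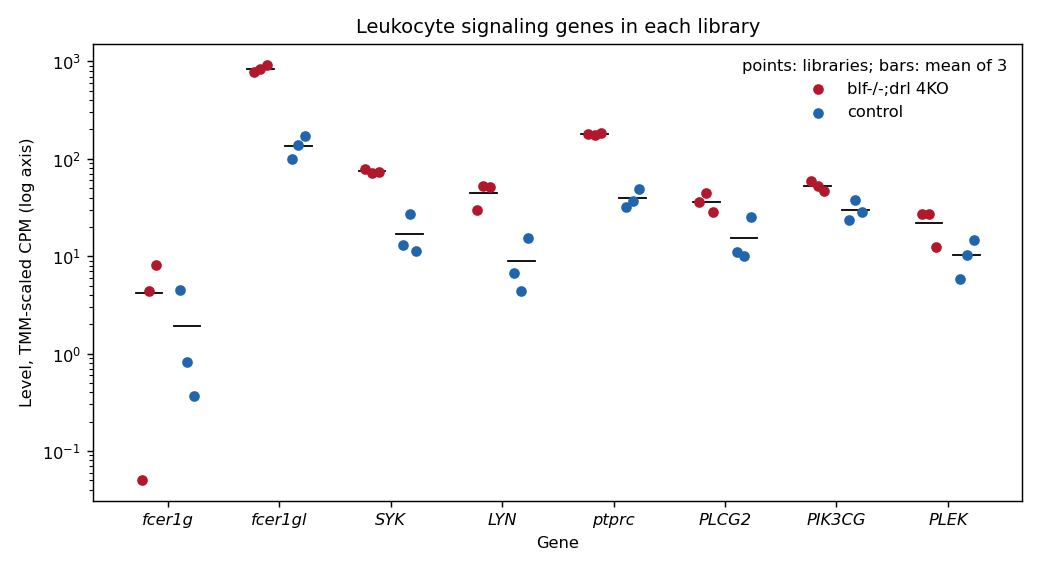
Level of each gene in each library as TMM-scaled CPM on a log axis, with blf-/-;drl 4KO libraries in red at the left of each pair and control libraries in blue at the right. Points are libraries and bars are means of 3. The groups do not overlap for 6 of the 8 genes, and overlap for fcer1g and PLEK.

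fcer1gl (ENSDARG00000104077), a gene of the Fc receptor gamma chain type, was at 774, 839 and 924 CPM in blf-/-;drl 4KO replicates 1, 2 and 3, and at 100.4, 138 and 170 CPM in control replicates 1, 2 and 3. The lowest mutant library was 4.56 times the highest control library. edgeR gave a log2 fold change of 2.64 with an SE of 0.21 and an adjusted p of 8.14e-06, larger than that of 91.3% of all tested genes. Relative spread was lower among mutant libraries, with a coefficient of variation of 8.92%, than among controls, with 25.5% (n = 3 each).

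fcer1g (ENSDARG00000103276), named for the gamma chain of the high-affinity IgE receptor, was covered by 203 reads over the 3 blf-/-;drl 4KO libraries and 75 over the 3 control libraries. These lay very unevenly: 1, 78 and 124 reads in blf-/-;drl 4KO replicates 1, 2 and 3, and 61, 10 and 4 in control replicates 1, 2 and 3. In CPM the values were 0.050, 4.41 and 8.18 in the mutant libraries and 4.51, 0.82 and 0.36 in the control libraries. The lowest of all 6 values was thus in a mutant library, and control replicate 1 was level with blf-/-;drl 4KO replicate 2. The exact Poisson 95% intervals were 0.0253 to 5.57 reads for the library with 1 read and 61.7 to 97.3 reads for the library with 78, so the spread within the group exceeded counting error. The log2 fold change of 1.14 had an SE of 1.45 and an adjusted p of 0.611 in edgeR, and no difference could be detected against this spread. It moved between 0.27 and 2.74 as single libraries were left out. It was 2.74 without control replicate 1, the control library with 61 reads, and 1.76 without blf-/-;drl 4KO replicate 1, the library with 1 read.

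Within each library fcer1gl had many more reads than fcer1g. The ratio of fcer1gl to fcer1g was 15392, 190 and 113 in blf-/-;drl 4KO replicates 1, 2 and 3, and 22.2, 168 and 466 in control replicates 1, 2 and 3. The groups overlapped, and the log2 ratio did not differ detectably (difference 2.52, exact two-sided permutation p = 0.5, n = 3 each, smallest possible p 0.1). These ratios are of reads and are not corrected for transcript length. Whether reads were shared between these genes cannot be checked from counts per gene.

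Other genes for ITAM chains and their partners had few reads. Of 6 such genes written (tyrobp, hcst, cd247, cd247l, cd79a and cd79b), 1, cd79a, passed the filter, with 43 reads over the blf-/-;drl 4KO libraries and 24 over the control libraries and no call (adjusted p = 0.804, edgeR). tyrobp, for the partner chain known as DAP12 in mammals, had 8 reads in all over the mutant libraries and 6 over the control libraries. hcst had 46 reads over the mutant libraries (29, 0 and 17 in replicates 1, 2 and 3) and 4 over the control libraries (2, 1 and 1). cd247, for a T cell receptor chain, had 9 reads over the mutant libraries (2, 2 and 5) and 61 over the control libraries (21, 4 and 36). For hcst and cd247 the groups overlapped in CPM, and neither gene was tested. tyrobp, hcst and cd247 were picked after their values were seen.

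SYK (ENSDARG00000008186), for the kinase that docks on phosphorylated ITAMs, was at 78.3, 71.2 and 72.8 CPM in blf-/-;drl 4KO replicates 1, 2 and 3, and at 13.1, 26.8 and 11.4 CPM in control replicates 1, 2 and 3. The mutant libraries lay close together and control replicate 2 was the highest control, below every mutant library. edgeR placed SYK at a log2 fold change of 2.12 with an SE of 0.39 (adjusted p = 0.00311). ZAP70, the relative of SYK that serves T cells in mammals, was below the filter, with 32 reads over the mutant libraries and 26 over the control libraries.

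LYN (ENSDARG00000067916), for a Src family kinase of mammalian B cells and myeloid cells, was at 29.5, 53.0 and 51.3 CPM in blf-/-;drl 4KO replicates 1, 2 and 3, and at 6.74, 4.37 and 15.5 CPM in control replicates 1, 2 and 3. Its lowest mutant library was 1.91 times its highest control library, the narrowest gap among the 4 called genes. LYN had a log2 fold change of 2.33 with an SE of 0.55 (edgeR adjusted p = 0.0111), and was at adjusted p = 0.0524 without control replicate 1.

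Of 8 other Src family genes listed, 5 passed the filter and 1 was called higher (20%, beside 13.0% of all tested genes). This was FGR (ENSDARG00000004378), for a myeloid Src family kinase, at 230 ± 34.6 CPM in blf-/-;drl 4KO libraries and 100.1 ± 15.5 CPM in control libraries (SD, n = 3 each), 2.29-fold higher by group means (edgeR adjusted p = 0.00237, SE of the log2 fold change 0.21). By the same measure LYN was 5.04-fold higher, and the difference between these fold changes was not tested. YES1, for a widely expressed Src family kinase, was at 18.3, 40.3 and 33.4 CPM in the mutant replicates. In the control replicates it was at 5.33, 10.3 and 0.64 CPM, and YES1 missed the threshold at adjusted p = 0.0502 (edgeR). It passed under 7 of 14 alternatives, with adjusted p from 0.0246 to 0.148. Of the Syk and Tec family genes, none of the 3 tested was called. BTK, the Tec family kinase that acts beside Syk in mammalian B cells and myeloid cells, was at 81.0, 77.5 and 122 CPM in the mutant replicates and at 92.7, 89.8 and 114 CPM in the control replicates (log2 fold change -0.08, SE 0.26, adjusted p = 0.857, edgeR).

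ptprc (ENSDARG00000071437), for the leukocyte phosphatase CD45 that removes an inhibitory phosphate from Src family kinases, was at 178, 174 and 185 CPM in blf-/-;drl 4KO replicates 1, 2 and 3, and at 32.3, 36.5 and 48.8 CPM in control replicates 1, 2 and 3. The mutant libraries were within a coefficient of variation of 3.18%, the smallest of the 8 genes, against 21.9% among the controls. edgeR gave ptprc a log2 fold change of 2.19 with an SE of 0.24 (adjusted p = 0.000103), and the lowest mutant library was 3.55 times the highest control.

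Genes that restrain this signaling were also among those called. Among all tested genes 13.0% were called higher and 9.92% lower. With a filter of 10 CPM in 3 libraries these were 1748 and 1433 of 7670 genes, and the share of the list below was not counted under it. Of 13 tested genes listed as inhibitory kinases and phosphatases, 3 were higher (23.1%), 1 was lower (7.69%) and 9 were not called. These calls include the genes for SHP-2, given below, and the role of each listed gene was not tested. PTPN6, for the phosphatase SHP-1 of blood cells, was at 274 ± 33.0 CPM in blf-/-;drl 4KO libraries and 75.3 ± 15.6 CPM in control libraries, 3.64-fold higher by group means (SD, n = 3 each). Its edgeR log2 fold change of 1.87 had an SE of 0.22 and an adjusted p of 0.000159. INPP5D, for the inositol phosphatase SHIP1, was at 91.2 ± 21.8 CPM in mutant libraries and 13.0 ± 6.69 CPM in control libraries (adjusted p = 0.00138, edgeR).

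The genes for the phosphatase SHP-2 moved apart. ptpn11b (ENSDARG00000012340) was at 32.7, 18.1 and 18.3 CPM in blf-/-;drl 4KO replicates 1, 2 and 3, and at 156, 94.3 and 86.9 CPM in control replicates 1, 2 and 3 (log2 fold change -2.28, SE 0.36, adjusted p = 0.00109, edgeR). The gene listed as PTPN11 (ENSDARG00000020334), picked after its values were seen, was at 123, 123 and 120 CPM in the mutant replicates and at 63.7, 52.0 and 49.6 CPM in the control replicates (log2 fold change 1.15, SE 0.23, adjusted p = 0.00513, edgeR). CSK, for the kinase that places the inhibitory phosphate on Src family kinases, was not called, at 60.4 CPM in mutant and 52.3 CPM in control libraries on average (adjusted p = 0.703, edgeR; also picked after its values were seen).

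The 3 effector members stayed below the threshold. PLCG2 (ENSDARG00000068763), for a phospholipase C gamma that makes calcium-releasing and protein kinase C-activating messengers, was at 35.9, 44.3 and 28.6 CPM in blf-/-;drl 4KO replicates 1, 2 and 3, and at 11.0, 10.1 and 25.1 CPM in control replicates 1, 2 and 3. The groups did not overlap, and control replicate 3 was the highest control, next to the lowest mutant library. A log2 fold change of 1.23 with an SE of 0.49 gave PLCG2 an adjusted p of 0.0935 in edgeR. PLCG2 was past the threshold without control replicate 3 (log2 fold change 1.75, adjusted p = 0.0427), with DESeq2 (1.33, 0.0398) and with library totals as the scale (1.57, 0.0376).

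PIK3CG (ENSDARG00000017757), for the catalytic subunit of the PI3-kinase that chemokine receptors activate in mammalian leukocytes, was at 59.7, 53.0 and 46.3 CPM in blf-/-;drl 4KO replicates 1, 2 and 3, and at 23.7, 37.4 and 28.2 CPM in control replicates 1, 2 and 3. Its log2 fold change of 0.83 (SE 0.34, adjusted p = 0.104, edgeR) was the smallest of the 8 genes. It was 1.16 (adjusted p = 0.0262) with library totals, a scale that also raised the median of all tested genes, to 0.42. PLEK (ENSDARG00000104325), for pleckstrin, a protein kinase C substrate of platelets and leukocytes, was at 27.2, 27.0 and 12.3 CPM in the mutant replicates, and at 5.77, 10.3 and 14.6 CPM in the control replicates. For PLEK, replicate 3 of the blf-/-;drl 4KO group was below replicate 3 of the controls, and its log2 fold change of 1.12 had an SE of 0.60 and an edgeR adjusted p of 0.214.

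**Figure D2:**
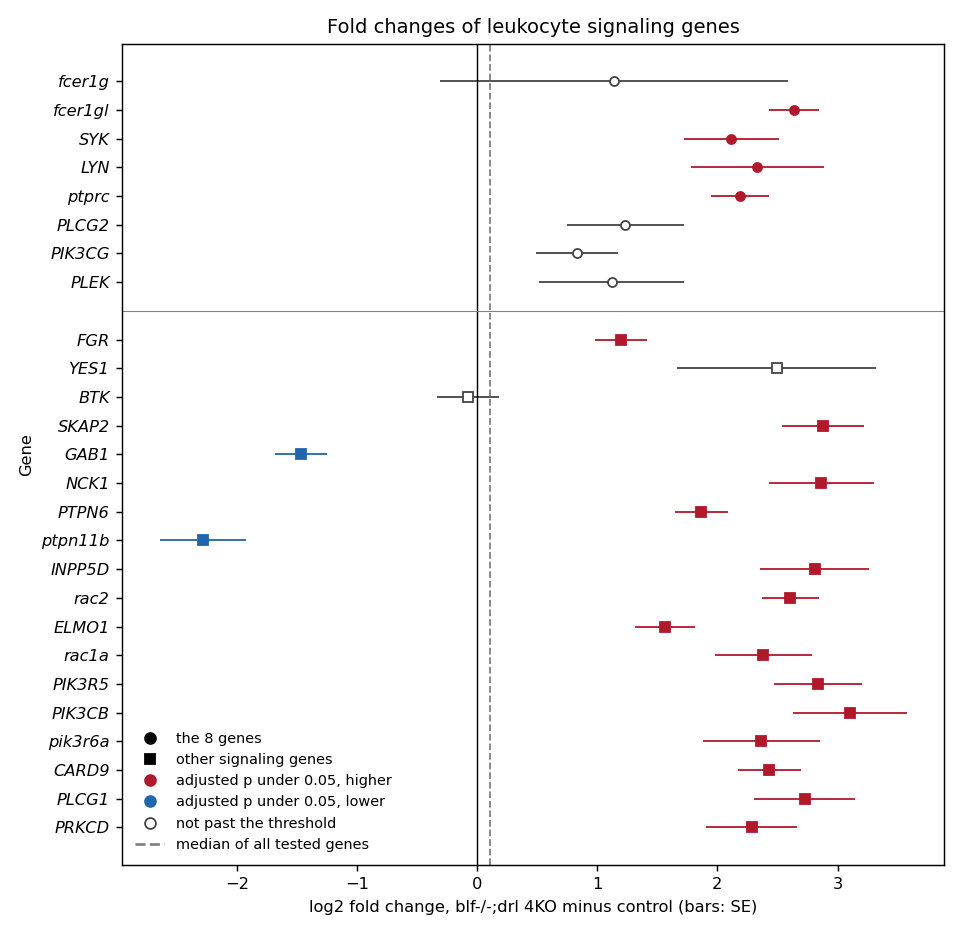
Log2 fold change (blf-/-;drl 4KO minus control) with its SE from the edgeR fit, for the 8 genes above the line and 18 other signaling genes below it. The 18 were taken for the smallest p in each list or for a lower call, so they do not represent their lists. Of all 87 other signaling genes tested, 58 were not called. Filled red marks were called higher, filled blue marks lower, and open marks were not called, and the dashed line is the median of all tested genes (0.11). fcer1gl, SYK, LYN and ptprc lie between 2.12 and 2.64, and PLCG2, PIK3CG and PLEK between 0.83 and 1.23.

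The other signaling genes were counted by role, beside the 13.0% called higher and 9.92% called lower among all tested genes. Over all roles, 109 other signaling genes had an ID, 87 were tested, 27 were higher (31.0%), 2 were lower and 58 were not called, with a median log2 fold change of 1.11. With a filter of 10 CPM in 3 libraries, 28 of them were higher and 2 lower, beside 1748 higher and 1433 lower of 7670 genes. The single roles were not counted under that filter. Of the Vav, Rac and actin regulator genes 8 of 17 were higher. rac2, for the Rac GTPase of blood cells that Vav proteins load with GTP in mammals, was at 567, 546 and 530 CPM in blf-/-;drl 4KO replicates 1, 2 and 3, and at 65.1, 80.9 and 124 CPM in control replicates 1, 2 and 3 (log2 fold change 2.61, SE 0.24, adjusted p = 2.45e-05, edgeR). rac1a was 5.22-fold higher, and ELMO1, for a partner of DOCK-type Rac exchange factors, 2.96-fold higher. The Vav genes with an ID were scarce, VAV2 at 3.35 CPM in mutant and 1.23 CPM in control libraries on average and VAV3 at 0.61 CPM in mutant and 1.24 CPM in control libraries, and neither was called (picked after their values were seen).

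Among adaptor genes 4 of 18 were higher, 1 was lower and 13 were not called. SKAP2, for an adaptor of the integrin and Src kinase pathway, was at 111, 115 and 107 CPM in the mutant replicates and at 11.2, 22.0 and 12.0 CPM in the control replicates (log2 fold change 2.88, SE 0.34, adjusted p = 0.000168, edgeR). NCK1 (ENSDARG00000074262), for an adaptor to the actin machinery, was 7.30-fold higher. The other gene listed as NCK1 (ENSDARG00000075369), picked after its values were seen, was at 62.8 CPM in mutant and 93.7 CPM in control libraries on average and was not called. GAB1, for a docking protein of receptor tyrosine kinases, was the lower one, at 140, 111 and 172 CPM in the mutant replicates and 327, 374 and 469 CPM in the control replicates (log2 fold change -1.47, SE 0.22, adjusted p = 0.000733, edgeR).

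Of other PI3-kinase subunit genes 5 of 10 were higher. PIK3R5, for the regulatory partner of the PIK3CG product in mammals, was at 113, 70.5 and 109 CPM in blf-/-;drl 4KO replicates 1, 2 and 3, and at 18.3, 9.57 and 13.0 CPM in control replicates 1, 2 and 3 (log2 fold change 2.84, SE 0.36, adjusted p = 0.000289, edgeR). pik3r6a, for the alternative partner, was 5.16-fold higher, and PIK3CB, for another catalytic subunit, 8.58-fold higher. The ratio of PIK3CG to PIK3R5 within a library was 0.53, 0.75 and 0.43 in the mutant replicates and 1.30, 3.91 and 2.17 in the control replicates. The groups did not overlap, and the log2 ratio was lower by 2.01 on average in blf-/-;drl 4KO libraries (difference -2.01). Exact two-sided permutation gave p = 0.1, the smallest that 3 libraries against 3 can give. This pair was chosen after its values were seen, and PIK3R5 was named for its small p. The separation and its p therefore describe the pair and give no independent support.

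Of other phospholipase C, calcium and protein kinase C genes 6 of 20 were higher. PLCG1, for the phospholipase C gamma of wider tissue range, was at 122, 92.2 and 103 CPM in blf-/-;drl 4KO replicates 1, 2 and 3, and at 9.47, 11.3 and 27.2 CPM in control replicates 1, 2 and 3 (log2 fold change 2.73, SE 0.42, adjusted p = 0.000965, edgeR). The ratio of PLCG2 to PLCG1 was 0.29, 0.48 and 0.28 in the mutant replicates and 1.16, 0.90 and 0.92 in the control replicates, again without overlap (difference of log2 ratios -1.54, exact two-sided permutation p = 0.1). Both pairs, PIK3CG with PIK3R5 and PLCG2 with PLCG1, were chosen after their values were seen. PIK3R5 and PLCG1 were named for their small p in their lists, so these separations give no independent support. CARD9, for the adaptor that links Syk to inflammatory signaling in mammalian myeloid cells, was at 273 ± 31.2 CPM in mutant libraries and 50.7 ± 16.6 CPM in control libraries (SD, n = 3 each, log2 fold change 2.43, SE 0.26, adjusted p = 8.52e-05, edgeR), and the protein kinase C gene PRKCD (ENSDARG00000070651) was 4.88-fold higher.

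**Figure D3:**
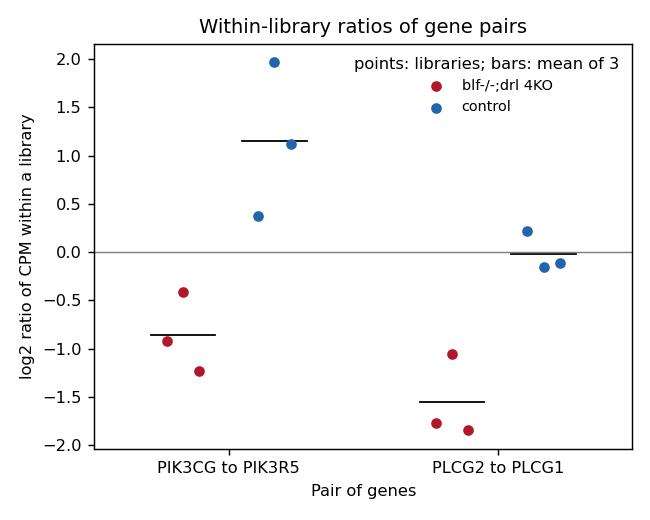
Log2 ratio of CPM within each library for PIK3CG to PIK3R5 and PLCG2 to PLCG1, with blf-/-;drl 4KO libraries in red at the left and control libraries in blue at the right. Points are libraries and bars means of 3, and ratios are not corrected for transcript length. The groups are apart for PIK3CG to PIK3R5 (means -0.85 and 1.15) and for PLCG2 to PLCG1 (means -1.56 and -0.02). Both pairs were chosen after their values were seen.

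Markers of myeloid cells were mostly called higher, beside 13.0% called higher among all tested genes. Of 9 pan-myeloid markers all 9 were tested and higher, and their summed CPM was 2845 to 3348 in blf-/-;drl 4KO libraries and 618 to 709 in control libraries. LCP1, for leukocyte plastin, and SPI1, for the myeloid transcription factor PU.1, were the most abundant of the 9. LCP1 averaged 817 CPM in mutant libraries and 156 CPM in control libraries, and SPI1 537 CPM in mutant libraries and 115 CPM in control libraries. Of 14 tested macrophage marker IDs 11 were higher (summed CPM 3656 to 4757 in mutant and 652 to 818 in control libraries). Several of these IDs share the symbol MFAP4, and the macrophage sum rests largely on them. The 2 most abundant averaged 2027.5 and 1009 CPM in mutant libraries, where the mean sum was 4285 CPM. In control libraries these 2 IDs averaged 355 and 59.3 CPM, of a mean sum of 715 CPM. Of 7 tested neutrophil markers 5 were higher (1275 to 1618 in mutant and 378 to 608 in control libraries). The neutrophil marker mpx had no ID and is not in this sum. The 2 most abundant neutrophil markers were lyz and nccrp1. lyz averaged 362 CPM in mutant and 146 CPM in control libraries, and nccrp1 382 CPM in mutant and 83.1 CPM in control libraries. Whether these markers are limited to neutrophils here was not tested. In bulk samples, where CPM are shares of a library, more cells of a type and more RNA per cell cannot be told apart. Neither can be told from a smaller share of other cells, such as those of the lower erythroid markers given below. The part of the myeloid markers in the results was not tested.

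The 8 genes were also set against the pan-myeloid markers within each library. Per 100 CPM of the summed pan-myeloid markers, ptprc was at 5.31, 5.60 and 6.50 CPM in blf-/-;drl 4KO replicates 1, 2 and 3, and at 5.22, 5.16 and 6.89 CPM in control replicates 1, 2 and 3. The ratio of group means on this scale was 1.01 for ptprc, 0.96 for SYK, 1.13 for LYN and 1.38 for fcer1gl, and the groups overlapped for each of these 4 genes.

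PIK3CG stood at 1.78, 1.71 and 1.63 CPM per 100 pan-myeloid CPM in the mutant replicates and at 3.83, 5.27 and 3.98 in the control replicates, a ratio of means of 0.39 with no overlap. PLCG2 had a ratio of 0.52 and PLEK of 0.48, also with every mutant library below every control library. For PLCG2 this separation was of no size, since the highest mutant library and the lowest control library were both at 1.43 CPM per 100 pan-myeloid CPM. For PLEK the highest mutant library was at 0.87 and the lowest control library at 0.93. Every mutant library was below every control library on this scale for 58.8% of all tested genes. On the macrophage scale the same 3 genes were again below the controls without overlap, as were 64.0% of all tested genes. On the neutrophil scale fcer1gl and ptprc were above the controls without overlap, with ratios of 2.11 and 1.54, which held for 5.66% of all tested genes. PIK3CG was below the controls without overlap on that scale, with a ratio of 0.57, which held for 48.6% of all tested genes.

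**Figure D4:**
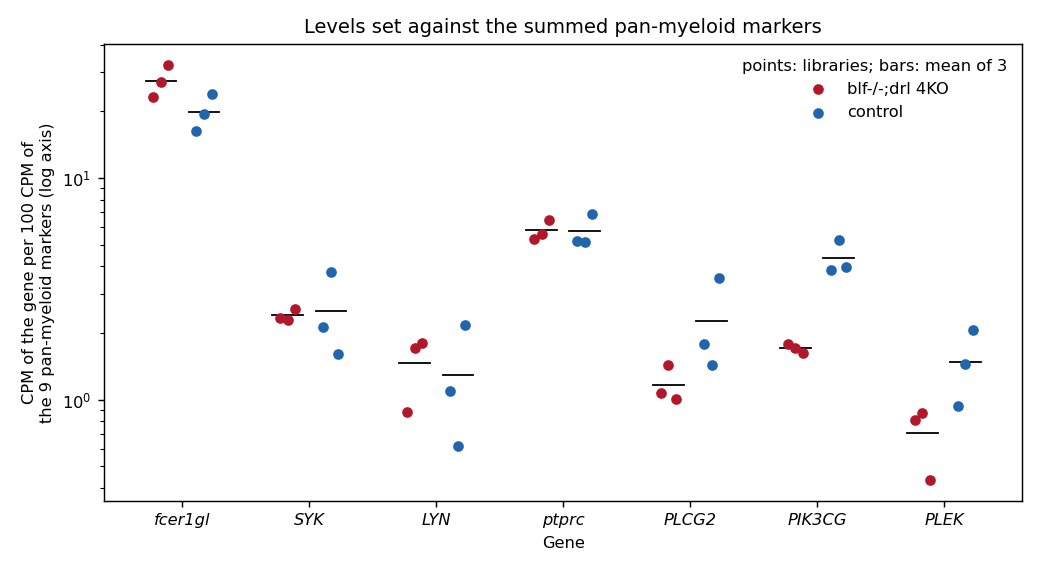
CPM of each gene per 100 CPM of the 9 summed pan-myeloid markers, on a log axis, in blf-/-;drl 4KO libraries (red, left) and control libraries (blue, right). Points are libraries and bars means of 3, and fcer1g is left out for its few reads. fcer1gl, SYK, LYN and ptprc overlap between the groups. PLCG2, PIK3CG and PLEK are lower in every mutant library, as are 58.8% of all tested genes, and for PLCG2 and PLEK the groups nearly touch.

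As a sum, the 8 genes were at 1183, 1265 and 1329 CPM in blf-/-;drl 4KO replicates 1, 2 and 3, and at 197, 264 and 314 CPM in control replicates 1, 2 and 3. fcer1gl alone held 67.1% of this sum in mutant libraries and 52.4% in control libraries on average. Without it the sum was 413 CPM in mutant and 122 CPM in control libraries, a ratio of 3.37. The log2 ratio of the full sum to the macrophage markers was -1.76 ± 0.28 in mutant and -1.49 ± 0.38 in control libraries (SD, n = 3 each). The groups overlapped, and no difference was detected (exact two-sided permutation p = 0.4). To the neutrophil markers it was -0.14 ± 0.27 in mutant and -0.86 ± 0.31 in control libraries (SD, n = 3 each). The permutation p there was 0.1, the smallest possible.

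Several of these genes also serve lymphocytes and thrombocytes. The marker counts below stand beside 13.0% called higher and 9.92% called lower among all tested genes. Of 13 lymphoid markers 3 were tested, and the summed CPM of all 13 was 18.1 to 31.5 in blf-/-;drl 4KO and 6.43 to 13.2 in control libraries. The higher sum came from ighm, which held 20.6 of 24.7 CPM in mutant and 2.31 of 10.7 CPM in control libraries on average. The rest of the sum was smaller in mutant than in control libraries on average. lck had 5 reads over the mutant and 12 over the control libraries, and RAG1 had 12 over the mutant and 11 over the control libraries. Of 9 tested thrombocyte marker IDs 3 were higher and 3 lower, with summed CPM of 421 to 469 in mutant and 400.2 to 561 in control libraries. The similar sums hide opposite differences. On average gp9 was at 3.63 CPM in mutant and 64.1 CPM in control libraries, NFE2 at 12.2 and 134, and GP1BB at 62.3 and 135. The higher IDs were listed as THBS1 and FERMT3. Apart from GP1BB, these genes were picked after their values were seen. Mast cell markers were below 1.4 CPM in sum in every library, from KIT and HDC alone, since cpa5 and cpa3 had no ID. Markers outside the leukocytes differed as well: 10 of 11 erythroid markers were lower (summed CPM 11864 to 15937 in mutant and 95362 to 123678 in control libraries), and 6 of 8 epidermis markers were higher (1002 to 1535 in mutant and 73.1 to 115 in control libraries). Of 9 skeletal muscle markers 6 were higher (2501 to 6498 in mutant and 572 to 1904 in control libraries), and of 8 endothelial markers 4 (417 to 475 in mutant and 91.0 to 158 in control libraries). The part of these markers in the results was not tested.

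No library was high or low for the whole set. Among mutant libraries replicate 3 was the highest for 3 of the 8 genes and the lowest for 3. Among control libraries replicate 3 was the highest for 5 genes and the lowest for 2. Of the 9 genes sought, vav1 included, 8 were found in the RefSeq gene order of the GRCz12tu assembly, with 0 pairs directly side by side.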

How the data were processed

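RNA-seq of sorted cells gave 1 file for each of 6 libraries. Each holds raw counts for Ensembl gene IDs, deposited as the authors made them with bcl2fastq, FastQC 0.11.9, HISAT2 2.2.1, SAMtools 1.10, featureCounts 1.6.0 and the GRCz11 build, per the submitters' processing notes. The strand setting, annotation release and treatment of shared reads were not stated there or in the labels. Total counts were 14063972 to 18101975 in blf-/-;drl 4KO and 12751618 to 14202026 in control libraries. Groups came from the sample titles, and p-values reflect only how these libraries varied, in part perhaps technically. No pair of replicates agreed within sampling noise (chi-square over degrees of freedom at least 31.8).

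All genes entered edgeR 4.0.16 (R 4.3.3) with filterByExpr, TMM factors and the robust quasi-likelihood test, without covariates. Adjustment was by Benjamini-Hochberg for 14517 genes, and genes under 0.05 were called. Printed CPM use TMM-scaled library sizes, and the SE is the size of the log2 fold change divided by the square root of F. Intervals cover counting error only. Ratios within libraries were compared by exact permutation. The edgeR fit was checked on counts simulated from its own means and dispersions, with known changes balanced up and down. That check does not cover a large one-sided shift, such as that of the erythroid markers.

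The genes and lists were chosen with earlier results of these data known. Some listed genes are not reported here and were left out of the counts and sums over lists. Other signaling genes named are the 3 of smallest p in each list with at least 5 CPM in a group, and every such gene called lower, and the 2 most abundant markers of a list. Others are said to be picked later. The alternatives tried were DESeq2 1.42.0, limma-voom (limma 3.58.1), scaling by RLE factors or by library totals, no filter on low counts or one of 10 CPM in 3 libraries, leaving out globin and mitochondrial genes, a replicate block and leaving out each library.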

Additional observations from a re-analysis of the deposited data

How the results depend on the processing

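Under 14 alternatives, 3 to 6 of the 8 genes were called higher and 0 lower. The count of 3 came without control replicate 1, where 1411 of all 15537 tested genes were higher. The count of 6 came with library totals, where 2402 of 14517 were higher. Over all genes, 2053 of 30020 were higher with no filter and 1748 of 7670 with the 10 CPM filter, each with 4 of the 8. fcer1gl, SYK and ptprc were past the threshold in all 14, LYN in 13 (not without control replicate 1), PLCG2 in 3, PIK3CG in 1, and PLEK and fcer1g in none. fcer1g had no value with the 10 CPM filter. Calls among the 8 genes numbered 3 to 5 without single libraries. With the replicate block 4 of the 8 genes were higher. The block fit is not a paired design, since the labels do not say what the numbers mark and same-numbered libraries correlated at -0.0408 to 0.00355 in their deviations from group means. The other signaling genes had 24 to 34 higher and 2 to 3 lower calls, and 18 to 23 and 2 to 3 without single libraries. The 24 came with RLE factors, beside 1795 of 14517 genes higher, and the 34 with DESeq2, beside 3155 higher. The 18 came without control replicate 1, beside 1411 of 15537 genes higher. The 23 came without blf-/-;drl 4KO replicate 2, beside 1551 of 15640.

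Over all genes, 1887 were higher and 1440 lower. Library totals gave 2402 and 959, with the median of all tested genes at 0.42 in place of 0.11. DESeq2 gave 3155 higher, and leaving out single libraries gave 1342 to 1551 higher and 868 to 1220 lower, the lowest without control replicate 2. The causes were not tested. BTK, not called in any alternative, turned to 0.23, 0.021 and 0.12 with library totals, DESeq2 and no filter, and lay between -0.29 and 0.061 without single libraries. The log2 ratio of fcer1gl to fcer1g differed by 0.29 to 3.83 without single libraries, and that of PIK3CG to PIK3R5 by -2.40 to -1.60. Few reads limit the scarce ITAM, Vav and lymphoid genes, whereas fcer1g varied within each group by more than counting error.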

Other observations

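Among the lymphoid markers, ighm, for the immunoglobulin mu heavy chain, was the exception to the low levels. It was at 21.1, 12.8 and 27.8 CPM in blf-/-;drl 4KO replicates 1, 2 and 3, and at 2.52, 3.05 and 1.36 CPM in control replicates 1, 2 and 3 (log2 fold change 3.15, SE 0.73, adjusted p = 0.00969, edgeR). PAX5, for a B cell transcription factor, had 13 reads over the mutant and 34 over the control libraries. cd79a and cd79b are for the B cell receptor chains that pair with the immunoglobulin in mammals. These 2 genes had 43 and 18 reads over the mutant libraries and 24 and 21 over the control libraries.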
